A study of Mus musculus with 26 samples.

Results

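The genes described here encode lysosomal cathepsins and a few proteins that act beside them: the cysteine cathepsins Ctss, Ctsl, Ctsb, Ctsh, Ctsz and Ctsc, the aspartic protease Ctsd, the cysteine protease Lgmn (legumain), the lysosomal membrane protein Lamp1 and the inhibitor Cst3 (cystatin C). They were chosen by name from the gene tables of the series, 10 of 25814 genes, with earlier results of these data known. All 10 were found in each of the 26 libraries. Messenger RNA was sequenced from T cells sorted by flow cytometry from Peyer's patches, the lymphoid follicles of the small intestine, of C57Bl/6 mice. CD4+ T cells came from mice on an elemental diet, in which free amino acids stand in for protein (n = 6), and from mice on a conventional diet (n = 6). A further pair, both from mice on the conventional diet, was of CD44+ T cells, in 7 libraries, and of CD44- T cells, also in 7. The CD4+ libraries were made from 22 ng of RNA with a standard kit and the CD44 libraries from 1 ng with a low-input kit, so the pairs were not compared with each other. The labels do not give the age of the mice, whether the CD44 sorts were also gated on CD4, or whether replicates came from separate animals. What the p-values weigh a difference against is thus the spread over the libraries of a group, and that spread may be technical in part.

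Cathepsins are made as inactive precursors, sorted to endosomes and lysosomes, and activated there at acid pH, and legumain helps to process several of them. In antigen-presenting cells cathepsin S trims the invariant chain from MHC class II molecules so that they can load peptides, a step that cathepsin L serves in thymic epithelium. Cystatin C is a secreted inhibitor that binds cysteine cathepsins tightly, and Lamp1 is a heavily glycosylated protein that lines the lysosomal membrane.

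By the deposited gene coordinates (GRCm38) the cysteine cathepsins lie apart, Ctss at chr3:95526786-95556403, Ctsl at chr13:64359337-64370890, Ctsb at chr14:63122462-63145923, Ctsh at chr9:90054152-90076089, Ctsz at chr2:174427493-174439039 and Ctsc at chr7:88278085-88310888. The other members are Ctsd at chr7:142375911-142388038, Lgmn at chr12:102394084-102439813, Lamp1 at chr8:13159161-13175338 and Cst3 at chr2:148871722-148875692. Ctsz and Cst3 share chromosome 2, and Ctsc and Ctsd share chromosome 7.

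Sequences before the RefSeq start are shown for 3 members because lysosomal genes are known to share the CLEAR element, a site of the transcription factor Tfeb and its relatives with the core CACGTG, and because Ctss is known as an interferon-responsive gene. RefSeq windows of the 250 bases before a start that RefSeq gives (GRCm38.p6) were at hand for 8 of the 10 members, as 9 windows, since Lgmn has a pair of starts. Set against the deposited gene spans, 4 windows (Ctss, Ctsz, Ctsc and Lamp1) lay before the gene and 3 reached into it, by 211 bases for Ctsd, 180 bases for Cst3 and 85 bases for 1 window of Lgmn. The other 2, the window of Ctsl and the second of Lgmn, lay wholly inside the gene and so are not before its deposited start. Both strands were searched for CACGTG, for its longer form with GT before it and AC after it, and for the core of an interferon-stimulated response element, which is GAAA, any 2 bases (NN) and GAAA again. Capitals mark the matches to CACGTG or to the interferon motif, which reads as its reverse complement in Lamp1.
Lamp1, chr8:13158911-13159160, + strand: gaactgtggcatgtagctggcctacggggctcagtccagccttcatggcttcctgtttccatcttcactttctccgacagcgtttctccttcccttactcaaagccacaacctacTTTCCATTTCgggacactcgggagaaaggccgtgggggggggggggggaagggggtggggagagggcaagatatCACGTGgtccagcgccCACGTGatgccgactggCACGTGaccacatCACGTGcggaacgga
Ctsd, chr7:142387828-142388077, - strand: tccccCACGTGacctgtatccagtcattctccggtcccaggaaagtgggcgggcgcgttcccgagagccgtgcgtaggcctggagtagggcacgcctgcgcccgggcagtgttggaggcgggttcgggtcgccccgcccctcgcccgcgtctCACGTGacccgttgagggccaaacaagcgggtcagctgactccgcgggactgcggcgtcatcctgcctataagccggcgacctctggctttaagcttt
Ctss, chr3:95526536-95526785, + strand: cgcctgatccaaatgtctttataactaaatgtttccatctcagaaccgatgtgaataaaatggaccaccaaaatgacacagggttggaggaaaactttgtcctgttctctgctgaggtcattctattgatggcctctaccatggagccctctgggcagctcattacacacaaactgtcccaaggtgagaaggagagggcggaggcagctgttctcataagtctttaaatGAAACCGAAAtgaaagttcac
Lamp1 held CACGTG 4 times, beginning 61, 45, 28 and 15 bases before the start. Of 32851 mouse promoter windows of this length, 7 (0.0213%) held it 4 times or more. Ctsd held it 2 times, 245 and 98 bases before the RefSeq start, and 141 windows (0.429%) held it 2 times or more. The windows of Ctsl and Lgmn that lie inside the gene held it 1 time each. At least 1 match stood in 1978 of all windows (6.02%). The longer form stood in 0 member windows and in 79 of all windows (0.24%). The interferon motif stood 21 bases before the start of Ctss and 135 bases before that of Lamp1, and in 978 of all windows (2.98%). These matches describe the letters of the windows, and the motifs were chosen with the members known.

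The library totals of exon reads lay between 17331588 and 22430541 in the elemental group and between 16401589 and 25415205 in the conventional group. They lay between 7180390 and 9991782 in the CD44+ group and between 7933600 and 13378353 in the CD44- group. Introns took 3.33% to 4.08% of gene reads in elemental and 3.97% to 4.61% in conventional libraries, and 20.6% to 29.0% in CD44+ and 9.39% to 27.0% in CD44- libraries. No pair of libraries within a group agreed within sampling noise. Levels are given as CPM, exon read counts scaled to library size with TMM factors, log2 fold changes are given ± SE, and a gene was called when its Benjamini-Hochberg adjusted p in edgeR's quasi-likelihood test over all genes tested was under 0.05. The 10 alpha-beta T cell markers, Cd3d and Cd3g among them, were tested in both comparisons. The sorted marker Cd44 averaged 157 ± 94.5 CPM in CD44+ cells and 81.2 ± 30.2 CPM in CD44- cells, was not called (adjusted p = 0.303), and its groups overlapped. In the diet comparison the sorted marker Cd4 averaged 239 ± 45.9 CPM in elemental and 353 ± 78.6 CPM in conventional libraries. Cd4 was called as lower (-0.56 ± 0.16, adjusted p = 0.0250), its groups overlapped, and the call was lost in 5 of the 12 fits that left out 1 library.

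In CD4+ T cell libraries of mice on the elemental diet, 8 of the 10 genes rose: Ctss, Ctsl, Ctsh, Ctsz, Ctsc, Lgmn, Lamp1 and Cst3. Their log2 fold changes ran from 0.30 for Lamp1 and Ctsc to 0.80 for Lgmn, so each rise was under 2-fold. Ctsb and Ctsd were not called. Of all 11938 genes tested, 17.4% were called, 9.68% as higher and 7.75% as lower, and the median log2 fold change was 0.40 over the 10 genes and -0.01 over all genes tested. The groups did not overlap for 3 of the 10 genes, Ctss, Ctsc and Lamp1, against 4.82% of all genes tested that were higher with no overlap. The summed level of the 10 genes had a lowest, median and highest value of 2076, 2270 and 2601 CPM in elemental libraries, against 1692, 1855 and 2180 CPM in conventional libraries.

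**Figure D1:**
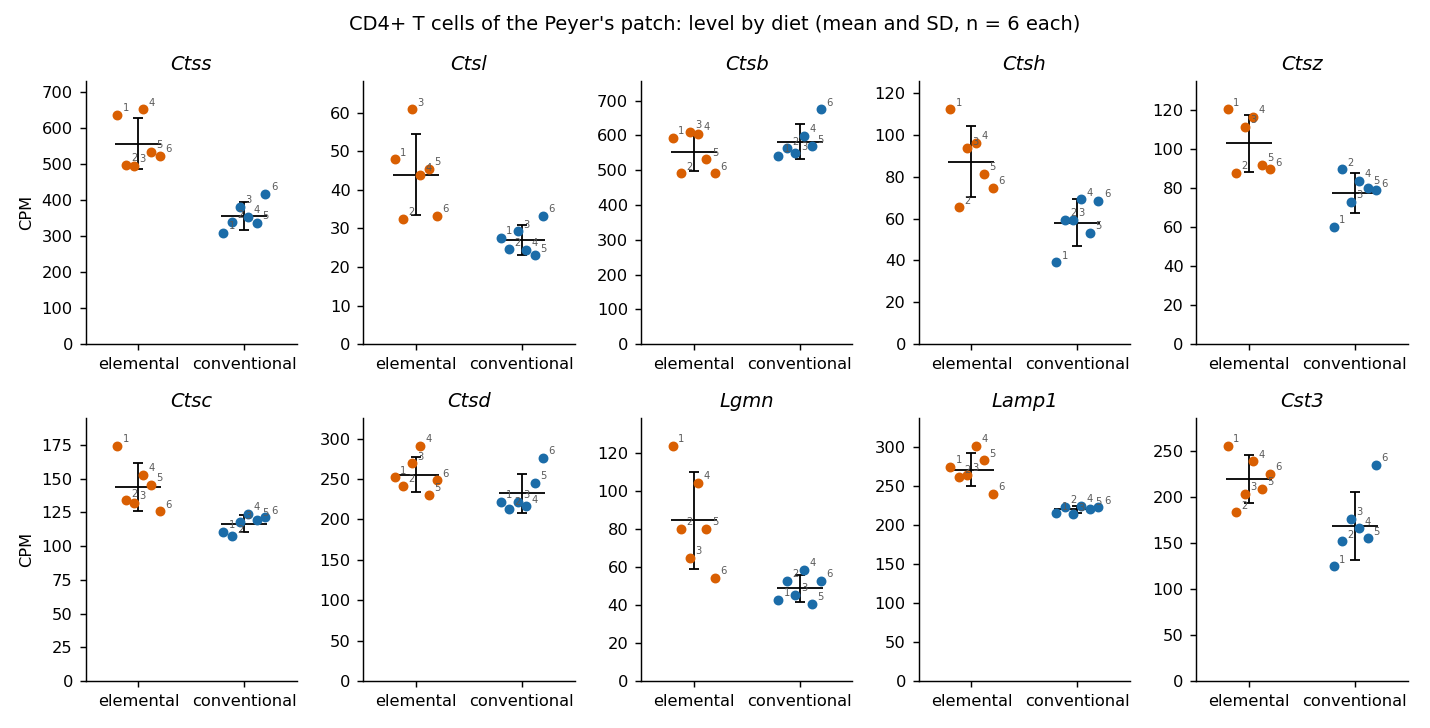
Level of each of the 10 genes (vertical axis, CPM from 0) in the 6 elemental libraries (left, orange) and the 6 conventional libraries (right, blue); each point is 1 library with its replicate number, the bar is the mean and the whiskers 1 SD. The groups are apart for Ctss, Ctsc and Lamp1, while for Ctsb the elemental libraries lie between 491 and 611 CPM and the conventional libraries between 541 and 675 CPM.

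Among the cysteine cathepsins, Ctss stood at 495, 528 and 651 CPM (lowest, median and highest) in elemental libraries, against 309, 346 and 417 CPM in conventional libraries. Every elemental library was above every conventional one. Ctss rose by a log2 fold change of 0.64 ± 0.10 (adjusted p = 5.56e-04), place 110 among all genes tested when ordered by p. Ctsl, the cathepsin with the lowest level per kilobase, stood at 32.4, 44.7 and 60.9 CPM in elemental libraries, against 23.1, 26.1 and 33.3 CPM in conventional libraries. Its groups met only at the edge, with 4 of 6 elemental libraries above every conventional one, and elemental replicate 3 was the highest. Ctsl rose by 0.70 ± 0.15 (adjusted p = 0.00532), on as few as 474 exon reads in a library.

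Ctsh, an aminopeptidase of the same family, stood at 65.3, 87.5 and 112 CPM in elemental libraries, against 39.1, 59.4 and 69.2 CPM in conventional libraries. All but 1 of the elemental libraries, replicate 2, were above every conventional one. Ctsh rose by 0.59 ± 0.15 (adjusted p = 0.0135). Ctsz, a carboxypeptidase also called cathepsin X, stood at 88.0, 102 and 121 CPM in elemental libraries, against 60.2, 79.6 and 89.8 CPM in conventional libraries. It rose by 0.41 ± 0.11 (adjusted p = 0.0203), and 4 of 6 elemental libraries were above every conventional one. The call was lost without elemental replicate 4, at 0.35.

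Ctsc, a dipeptidyl peptidase that activates the granule serine proteases of cytotoxic cells, stood at 126, 139.6 and 174 CPM in elemental libraries, against 107, 119 and 124 CPM in conventional libraries. The groups did not overlap, but the lowest elemental and the highest conventional library were close. Ctsc rose by 0.30 ± 0.09 (adjusted p = 0.0248). Its call was lost without conventional replicate 2, without elemental replicate 1 or without elemental replicate 4, where log2 fold changes reached no lower than 0.24. Ctsb, an endopeptidase that can also act as a carboxypeptidase, was the 1 member with a negative log2 fold change. It stood at 491, 563 and 611 CPM in elemental libraries, against 541, 566 and 675 CPM in conventional libraries. The log2 fold change of Ctsb was -0.07 ± 0.09 (adjusted p = 0.572), and its 95% interval ran from 0.846-fold to 1.07-fold.

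Ctsd, the aspartic protease, stood at 231, 250.1 and 291 CPM in elemental libraries, against 213, 222 and 276 CPM in conventional libraries. Its groups overlapped, with 1 elemental library above every conventional one. Ctsd was not called, at 0.14 ± 0.08 (adjusted p = 0.255), with a 95% interval from 0.982-fold to 1.23-fold. From 11.8% to 25.1% of Ctsd exon reads and 26.1% to 51.4% of Lamp1 exon reads in a library matched 1 place only, so both levels rest on reads that other places share, and Ctsd also overlaps the gene AC034099.1 on its own strand. On the reads of 1 place only, Lamp1 was called at a log2 fold change of 0.25 and Ctsd stood at 0.10 without a call.

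Lgmn, the asparaginyl endopeptidase, had the largest rise of the 10 genes and the widest spread among elemental libraries relative to its level. It stood at 54.4, 80.0 and 124 CPM in elemental libraries, against 40.5, 49.0 and 58.3 CPM in conventional libraries. Elemental replicates 1 and 4 were highest, replicate 6 lay within the conventional range, and Lgmn rose by 0.80 ± 0.17 (adjusted p = 0.00650). Lamp1, the membrane protein, stood at 239.7, 269.6 and 301 CPM in elemental libraries, against 214, 222 and 225 CPM in conventional libraries. The conventional libraries lay within 1.05-fold of each other and below every elemental one. Lamp1 rose by 0.30 ± 0.07 (adjusted p = 0.00887).

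Cst3, the inhibitor, stood at 184, 217 and 256 CPM in elemental libraries, against 125, 161 and 235 CPM in conventional libraries. The groups overlapped through conventional replicate 6, which was above 4 of the 6 elemental libraries. Cst3 rose by 0.38 ± 0.13 with an adjusted p of 0.0492, next to the threshold. The call was lost in 10 of the 12 fits that left out 1 library, where adjusted p ran from 0.00210 to 0.104, and held only without elemental replicate 2 or without conventional replicate 6.

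**Figure D2:**
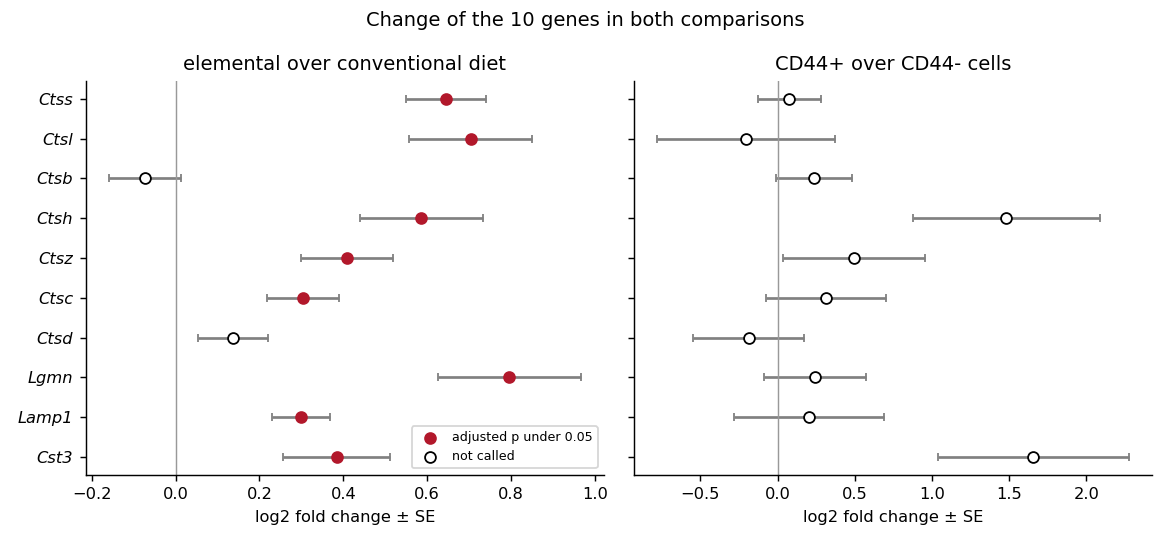
Log2 fold change of each of the 10 genes (horizontal axis, ± SE) for elemental over conventional diet (left) and for CD44+ over CD44- cells (right); filled points were called at an adjusted p under 0.05. On the left 8 points are filled and lie between 0.30 and 0.80, and on the right no point is filled and the SE of Ctsh and Cst3 reaches 0.61 and 0.62.

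Per kilobase of deposited exon length, Ctss had the highest mean level and Ctsl the lowest in each of the 4 groups. These ranks depend on that length, which ran from 921 bp for Cst3 to 6333 bp for Ctsl. By mean CPM Ctsl was not the lowest in the CD44 groups. It averaged 70.6 CPM against 64.2 CPM for Ctsh in CD44+ libraries, and 81.2 CPM against 23.0 CPM in CD44- libraries. Ctsb was above Ctss by mean CPM in both CD44 groups and in conventional libraries, there at 583 against 356 CPM. In elemental libraries they were close, at 554 CPM for Ctsb and 556 CPM for Ctss. In elemental libraries Ctss stood at 409.6 ± 51.3 CPM per kb, followed by Cst3 at 238 ± 28.3, then Lamp1 (121.5), Ctsd (120.1) and Ctsb (117), whose ranges overlapped each other, then Ctsz (71.6), Ctsh (49.3), Lgmn (41.9) and Ctsc (27.0), each overlapping the next, and Ctsl at 6.94 ± 1.66. In conventional libraries the order was Ctss at 262 ± 28.1 CPM per kb, Cst3 at 183 ± 40.3, Ctsb (123), Ctsd (109), Lamp1 (98.7), Ctsz (53.9), Ctsh (32.9), Lgmn (24.1), Ctsc (21.9) and Ctsl at 4.27 ± 0.60. There the ranges of Ctss and Cst3 overlapped, as did those of each neighbour from Cst3 down to Lamp1 and from Ctsh down to Ctsc. Ctss took 31.5%, 34.4% and 35.2% (lowest, median and highest) of the summed level per kilobase of the 10 genes in elemental libraries, against 28.1%, 28.4% and 30.5% in conventional libraries. Ctsb took 9.18%, 9.52% and 11.1% in elemental libraries, against 12.6%, 13.5% and 14.5% in conventional libraries. Neither share overlapped between the groups. As parts of the same sum, the share of Ctsb falls when other members rise, and Ctsb itself was not called. The summed level per kilobase of the 6 cysteine cathepsins was 2.54, 2.92 and 3.00 times that of Cst3 in elemental libraries, against 2.24, 2.84 and 3.18 times in conventional libraries, and these ranges overlapped.

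Markers of other cell types moved with the diet groups. Of 12 tested markers of macrophages and monocytes 11 rose, among them the complement genes C1qa (2.17 ± 0.31), C1qb (1.97 ± 0.32) and C1qc (2.05 ± 0.30), as log2 fold changes. The summed level of the listed macrophage and monocyte markers was 377 to 1120 CPM in elemental libraries, against 123 to 226 CPM in conventional libraries. Of 12 tested dendritic cell markers 8 rose, with sums of 70.8 to 177 CPM in elemental libraries, against 56.5 to 72.1 CPM in conventional libraries. Of 15 tested epithelial markers 6 rose, with sums of 724 to 1723 CPM in elemental libraries, against 76.5 to 1068 CPM in conventional libraries. Of 4 tested germinal centre B cell markers 4 fell, of 10 B cell markers 3 fell and of 5 plasma cell markers 3 fell, and none of the 3 tested stromal and endothelial markers was called. Of 10 alpha-beta T cell markers 4 fell, Cd6 (-0.52 ± 0.12), Cd28 (-0.47 ± 0.09), Cd5 (-0.35 ± 0.10) and Zap70 (-0.25 ± 0.06), with sums of 3954 to 4562 CPM in elemental libraries, against 4185 to 4973 CPM in conventional libraries. The call of Cd5 was lost in 5 of the 12 fits that left out 1 library. No marker in these lists was at 0 in every library. Their part in the result was not tested, and in bulk libraries a larger share of a cell type and more RNA per cell cannot be told apart.

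The elemental libraries with the highest summed macrophage and monocyte markers were replicate 1 (1120 CPM) and replicate 4 (742 CPM), and these were also highest for the sum of the 10 genes (2592 and 2601 CPM). The sums did not run together throughout. Replicate 5 had 686 CPM of these markers and 2233 CPM of the 10 genes, against 398 and 2306 CPM in replicate 3. Without both replicates 1 and 4, a choice made after seeing the data, 3 of the 10 genes were called: Ctss at 0.52, Ctsl at 0.67 and Lgmn at 0.51. Leaving out the libraries highest for the 10 genes had to lower the elemental mean of their sum. The part of the markers was not tested by this. The other 5 calls were lost, at log2 fold changes of 0.43 for Ctsh, 0.29 for Ctsz, 0.20 for Ctsc, 0.25 for Lamp1 and 0.28 for Cst3, while 733 genes were called in all. With all 4 groups in 1 fit, where the low-input libraries share the estimate of spread, 2 genes and 0 of the 10 were called. None of the 10 passed a test against a fold of 1.5, which 347 genes passed.

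**Figure D3:**
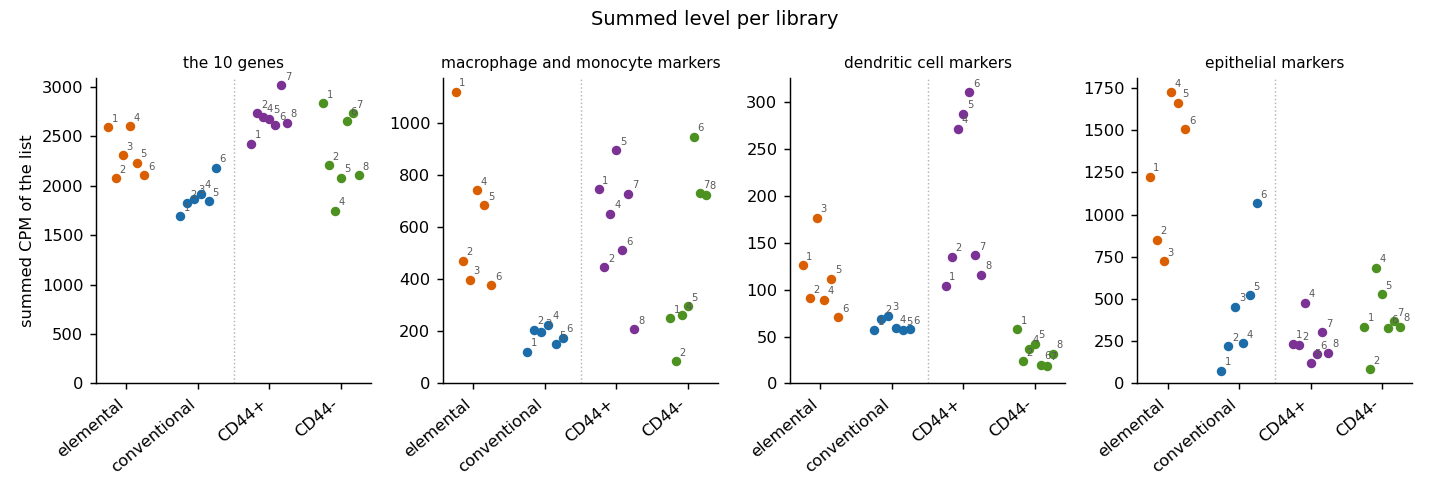
Summed level per library (vertical axis, CPM from 0; each point 1 library with its replicate number) of the 10 genes and of the listed markers of macrophages and monocytes, dendritic cells and epithelial cells, in elemental, conventional, CD44+ and CD44- libraries; the dotted line parts the 2 comparisons. Macrophage and monocyte markers reach 1120 CPM in elemental libraries and at most 226 CPM in conventional libraries, and span 209 to 896 CPM in CD44+ and 85.4 to 948 CPM in CD44- libraries.

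Other lysosomal genes were counted from lists by role. Of the 10 tested other cathepsins and lysosomal peptidases, none rose and 1 fell: Ctse, an aspartic protease of endosomes, at -0.66 ± 0.16 (adjusted p = 0.0118). Ctsg was at 0 in every diet library. Of 5 tested other inhibitors, 1 rose, Cst6 (1.39, adjusted p = 0.0481), which is named here after its values were seen and averaged 5.41 CPM in elemental libraries and 2.10 CPM in conventional libraries. Of 35 hydrolases and their activators 7 rose and 1 fell, among them the ceramidase Asah1 (0.57 ± 0.11), the cholesterol carrier Npc2 (0.51 ± 0.11), Psap, the precursor of the saposins (0.49 ± 0.10), and the phosphatase Acp5 (0.43 ± 0.09) as rises and the sulfamidase Sgsh (-0.60 ± 0.14) as the fall. The call of Cst6 was lost in 11 of the 12 fits that left out 1 library, and the calls of the other named genes of these lists in none. The list medians were 0.04, 0.32 and 0.06 for these 3 lists, against -0.01 over all genes tested.

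Of 16 lysosomal membrane genes 4 rose and 1 fell. The tetraspanin Cd63 rose by 1.78 ± 0.24 and averaged 51.9 ± 15.2 CPM in elemental libraries and 15.2 ± 4.35 CPM in conventional libraries. Cd68 (0.81 ± 0.24), a macrophage marker, Laptm4a (0.43 ± 0.11) and Scarb2 (0.40 ± 0.09), the receptor that carries glucocerebrosidase, also rose, and Laptm5, a protein of blood cell lysosomes, fell (-0.38 ± 0.10). Of 18 subunits of the proton pump that acidifies lysosomes 4 rose, Atp6v0d2 (0.69 ± 0.23), Atp6v0b (0.55 ± 0.16), Tcirg1 (0.48 ± 0.13) and Atp6v0c (0.25 ± 0.08), and none fell. Of 10 sorting genes 1 rose, progranulin (Grn, 0.42 ± 0.13), and 1 fell, the mannose 6-phosphate tagging enzyme Gnptab (-0.95 ± 0.26). Tfeb (-0.12 ± 0.13, adjusted p = 0.526) and Tfe3 (-0.30 ± 0.13, adjusted p = 0.119), transcription factors of lysosomal genes, were the 2 tested of their list and were not called. Without 1 library the calls of Atp6v0c and Atp6v0d2 were lost in 9 of 12 fits each, of Grn in 8, of Atp6v0b in 5, of Cd68 in 4, of Tcirg1 and Gnptab in 3 each and of Laptm5 in 1, and those of Cd63, Laptm4a and Scarb2 in none. The medians of these 4 lists were 0.14, 0.16, -0.02 and -0.21.

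Of 8 class II processing and presentation genes 1 rose: H2-DMb1, a chain of the peptide exchanger, by 1.26 ± 0.25, at 42.2 ± 13.9 CPM in elemental libraries and 17.7 ± 5.71 CPM in conventional libraries. The list median was 0.22. Cd74, the invariant chain that cathepsin S cleaves, averaged 718 ± 134 CPM in elemental libraries and 726 ± 161 CPM in conventional libraries (adjusted p = 0.954).

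**Figure D4:**
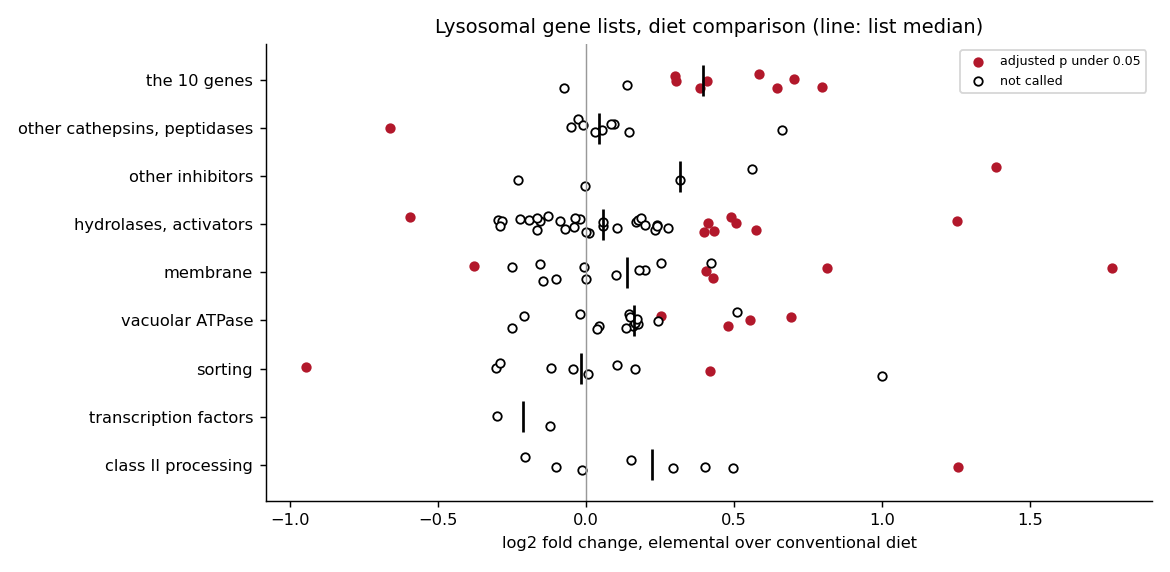
Log2 fold change for elemental over conventional diet (horizontal axis) of the 10 genes and of the tested genes of 8 lysosomal lists (rows); filled points were called at an adjusted p under 0.05, and the vertical line is the median of each list. The median is 0.40 for the 10 genes and at most 0.32 in the other lists, and Cd63 stands farthest to the right at 1.78.

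The genes whose centred log2 CPM ran closest to that of a member over the 12 diet libraries were taken from 8997 genes, with the root mean square difference as the measure. Casp6 (0.09), Marc2 (0.11) and Pttg1ip (0.11) were closest to Ctss, and Unc93b1 (0.15), Renbp (0.15) and Asah1 (0.16) to Ctsh. Tcirg1 (0.11), Stx7 (0.12) and Unc93b1 (0.12) were closest to Ctsz, and Lamp2 (0.08), Arl8b (0.09) and Gsn (0.09) to Ctsb. Actr1b (0.09), Lamp1 (0.10) and Dedd2 (0.10) were closest to Ctsc, the 1 case of a member among the neighbours of another. For Ctsd they were Emc3, Tmbim6 and Atp6ap1, each at 0.07, and for Lamp1 they were Slc39a14 (0.07), BC037034 (0.07) and Fuca1 (0.08). Prdx5 (0.08) and Alg5 (0.08) were among the 3 closest to Cst3. Ctsl and Lgmn, with the widest spread over these libraries, had more distant neighbours: Bst2 (0.20), Plod3 (0.21) and Rnf122 (0.21) for Ctsl and Adgrg5 (0.16), Tmem176b (0.19) and Manbal (0.20) for Lgmn.

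In CD44+ against CD44- T cells, none of the 10 genes was called, while 64 of 8343 genes tested (0.767%) were, 25 as higher (0.3%) and 39 as lower (0.467%). At an unadjusted p under 0.05, 2 of the 10 passed, Ctsh and Cst3, against 13.4% of all genes tested. DESeq2 and limma-voom with quality weights each called 0 of the 10. The median log2 fold change was 0.24 over the 10 genes and 0.03 over all genes tested, and no member had groups without overlap, against 0.755% of all genes tested. The highest library was up to 12.5 times the lowest within 1 group (Cst3 in CD44+ cells), where the widest in a diet group was 2.27 times (Lgmn on the elemental diet). The summed level of the 10 genes had a lowest, median and highest value of 2423, 2676 and 3018 CPM in CD44+ libraries, against 1747, 2208 and 2834 CPM in CD44- libraries.

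**Figure D5:**
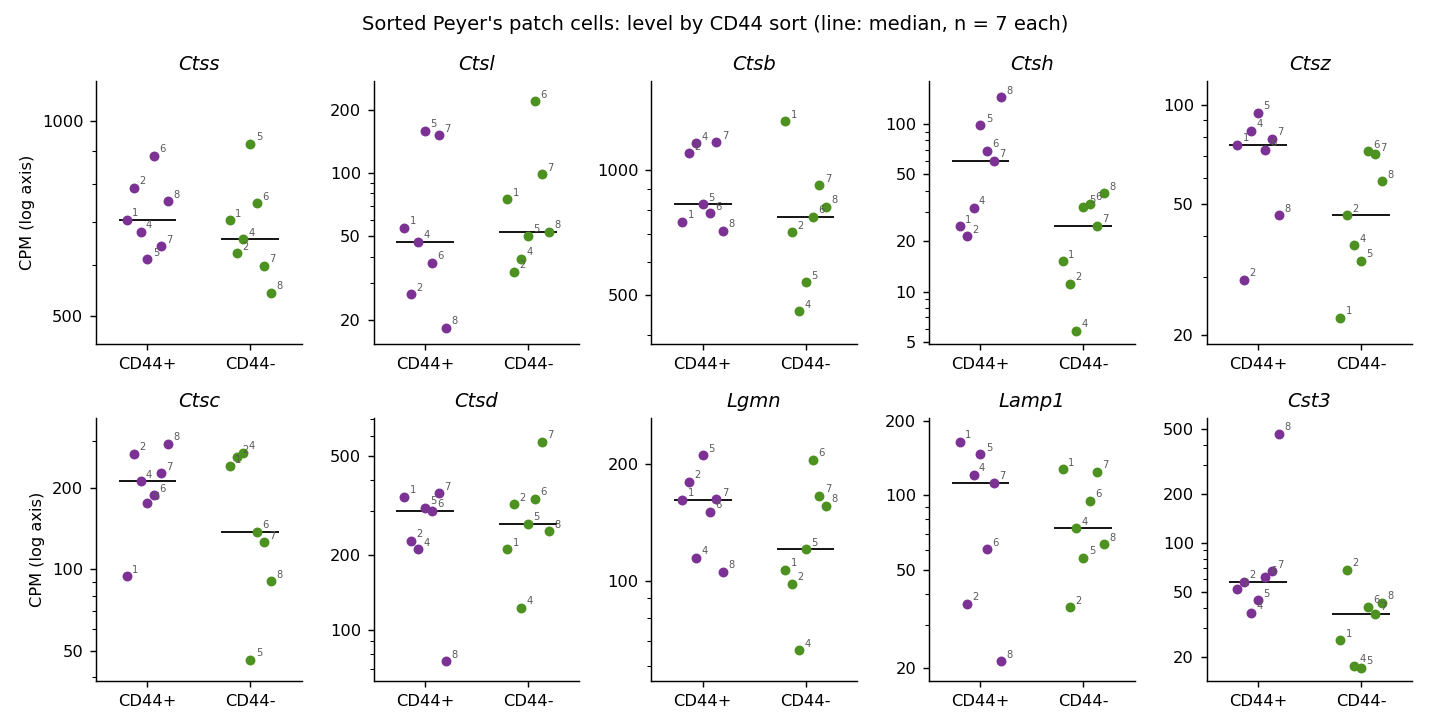
Level of each of the 10 genes (vertical axis, CPM on a log axis) in the 7 CD44+ libraries (left, purple) and the 7 CD44- libraries (right, green); each point is 1 library with its replicate number and the line is the median. The groups overlap for every one of the 10 genes, and CD44+ replicate 8 stands apart for Cst3 at 467 CPM.

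Cst3, the inhibitor, stood at 37.5, 57.7 and 467 CPM (lowest, median and highest) in CD44+ libraries, against 17.2, 37.0 and 68.8 CPM in CD44- libraries. CD44+ replicate 8 held the 467 CPM, and the other 6 CD44+ libraries lay between 37.5 and 67.1 CPM. The log2 fold change was 1.66 ± 0.62 (adjusted p = 0.237), and without CD44+ replicate 8 it was 0.58 (adjusted p = 0.703, against 0.204 to 0.703 over the fits that left out 1 library). Ctsh stood at 21.4, 60.5 and 144 CPM in CD44+ libraries, against 5.82, 24.6 and 38.7 CPM in CD44- libraries. In 4 of 7 CD44+ libraries Ctsh was above every CD44- library. Its log2 fold change was 1.48 ± 0.61 (adjusted p = 0.284), and the lowest library, CD44- replicate 4, held 45 exon reads. With all 4 groups in 1 fit, Cst3 and Ctsh were both called, among 1748 genes.

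For the other members the intervals were wide. Ctss stood at 612, 704 and 884 CPM in CD44+ libraries, against 543, 657 and 922 CPM in CD44- libraries. Its log2 fold change of 0.08 ± 0.20 had a 95% interval from 0.801-fold to 1.39-fold, the narrowest of the 10. Ctsb stood at 714, 825 and 1165 CPM in CD44+ libraries, against 456, 771 and 1307 CPM in CD44- libraries (0.24 ± 0.25), with CD44- replicate 1 the highest of all 14. Ctsc stood at 94.3, 213 and 293 CPM in CD44+ libraries, against 46.3, 138 and 271 CPM in CD44- libraries (0.31 ± 0.39), and 6 of 7 CD44+ libraries were above the mean of the CD44- group. Ctsz stood at 29.5, 75.7 and 94.5 CPM in CD44+ libraries, against 22.6, 46.2 and 72.4 CPM in CD44- libraries (0.49 ± 0.46). In 5 of 7 CD44+ libraries Ctsz was above every CD44- library, and CD44+ replicates 2 and 8 were the lowest of their group.

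Ctsl was uneven in both groups: it stood at 18.4, 47.2 and 158 CPM in CD44+ libraries, against 34.0, 52.5 and 219 CPM in CD44- libraries. Its log2 fold change was -0.20 ± 0.58, and 0.25 without CD44- replicate 6, the library with 219 CPM. Lgmn stood at 105, 162 and 211 CPM in CD44+ libraries, against 66.1, 120.4 and 205 CPM in CD44- libraries (0.24 ± 0.33). The highest Lgmn, Ctsl and Ctsz of the CD44- group were in the same library, replicate 6, which also had that group's highest macrophage and monocyte marker sum (948 CPM). The other members peaked elsewhere in that group. Ctsb and Lamp1 peaked in replicate 1, Ctsc in replicate 4, Ctss in replicate 5, Ctsd in replicate 7 and Ctsh in replicate 8. Cst3 peaked in replicate 2, which had the lowest such marker sum (85.4 CPM). Ctsd stood at 75.0, 301 and 353 CPM in CD44+ libraries, against 123, 267 and 567 CPM in CD44- libraries (-0.19 ± 0.36), and turned to 0.06 without CD44- replicate 7, the highest. Lamp1 stood at 21.3, 112 and 165 CPM in CD44+ libraries, against 35.3, 73.6 and 127 CPM in CD44- libraries (0.20 ± 0.49). CD44+ replicate 8 was the lowest CD44+ library for Lamp1, Ctsd, Ctsl, Ctsb and Lgmn and the highest for Cst3, Ctsh and Ctsc. Summed per kilobase, the 6 cysteine cathepsins were 1.73, 14.1 and 21.2 times Cst3 in CD44+ libraries, against 9.41, 19.0 and 45.5 times in CD44- libraries.

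In CD44+ libraries the mean level per kilobase was 532 ± 69.2 CPM for Ctss and 195 ± 42.7 CPM for Ctsb, and the range of Ctss overlapped no other than that of Cst3, whose highest library reached 507 CPM per kb. In CD44- libraries it was 505 ± 91.3 CPM for Ctss and 166 ± 58.8 CPM for Ctsb, and these ranges did not overlap. From Ctsb down to Ctsl every neighbour in the order overlapped the next, in both groups.

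Of the lysosomal lists in this comparison, 3 had a called gene. Napsa, an aspartic protease of the other cathepsins and lysosomal peptidases (9 tested), rose by 2.66 ± 0.60 (adjusted p = 0.0399), at 136 ± 48.2 CPM in CD44+ libraries and 21.4 ± 12.4 CPM in CD44- libraries. Cstb, the cytosolic inhibitor cystatin B and 1 of 4 other inhibitors tested, rose by 1.15 ± 0.27 (adjusted p = 0.0470), at 412 ± 57.0 CPM in CD44+ libraries and 186 ± 49.0 CPM in CD44- libraries. H2-Aa, a class II chain and 1 of 8 genes tested in its list, rose by 1.74 ± 0.37 (adjusted p = 0.0321), at 2591 ± 1283 CPM in CD44+ libraries and 776 ± 442 CPM in CD44- libraries. Without 1 library these calls were lost in 10 of 14 fits for Napsa, 11 for Cstb and 5 for H2-Aa. None was called of 35 hydrolases and activators, 15 membrane genes, 18 proton pump subunits, 10 sorting genes and 3 transcription factors. Among the pump subunits Atp6v1f had a log2 fold change of 1.03 ± 0.27 (adjusted p = 0.0781) and Atp6v0e of 0.85 ± 0.27 (adjusted p = 0.142). The list medians were 0.07 for the hydrolases, 0.13 for the membrane genes, 0.54 for the pump, 0.31 for sorting and 0.14 for the transcription factors.

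Markers of other cell types differed between the CD44 groups as well. The plasma cell markers Mzb1 (2.58 ± 0.48) and Jchain (2.32 ± 0.46), 2 of 3 tested, rose, and the listed plasma cell markers summed to 3806 to 8073 CPM in CD44+ libraries, against 374 to 3115 CPM in CD44- libraries. Of 6 tested dendritic cell markers 1 rose, and their median log2 fold change was 0.04. The listed dendritic cell markers summed to 104 to 311 CPM in CD44+ libraries, against 19.0 to 57.9 CPM in CD44- libraries. These sums hold all 12 listed markers, tested or not. Of those not tested, Cd209a averaged 51.2 ± 65.1 CPM in CD44+ and 0.07 ± 0.11 CPM in CD44- libraries. Xcr1, also not tested, went the other way, at 0.11 CPM in CD44+ and 3.75 CPM in CD44- libraries. None of 13 macrophage and monocyte markers (209 to 896 CPM in CD44+ libraries, 85.4 to 948 CPM in CD44- libraries), 8 B cell markers (591 to 1981 CPM in CD44+ libraries, 238 to 1361 CPM in CD44- libraries) or 3 epithelial markers was called, nor any of 3 germinal centre B cell, 2 stromal and endothelial or 10 alpha-beta T cell markers. CD44+ replicate 8 had the lowest macrophage and monocyte sum of its group, 209 CPM. Their part in the levels of the 10 genes was not tested.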

How the data were processed

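Per the file headers, the authors deposited for each of the 26 libraries a table of 25814 genes with whole-number read counts, split into exon, intron and gene reads, with and without reads that match several places. Total exon reads were used. Per the submitters' processing notes the genome build is GRCm38. The sources used here do not name an aligner or a counting program and do not state a strand setting. Per-length values divide CPM by the deposited exon length.

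The fit of each comparison held only its 2 groups and was made in R 4.3.3 with edgeR 4.0.16 (filterByExpr, TMM, robust quasi-likelihood test, two-sided, Benjamini-Hochberg adjustment over all genes tested). It was run on simulated counts with planted changes of 2-fold or more, so smaller changes, such as those of the members on the diet, were not covered. The SE is the log2 fold change over the square root of F, and 95% intervals are 1.96 SE on either side. Log2 CPM used a prior count of 2. DESeq2 1.42.0 and limma 3.58.1 served for alternatives. Python 3.11.15 with pandas 2.3.3 and matplotlib 3.10.9 made the tables and figures. The members had at least 474 exon reads in each diet library and at least 45 in each CD44 library.

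All 10 genes are named. From each of the lists beside them the text names up to 4 called genes per direction whose mean log2 CPM was 2 or more, by size of change, or the 2 of highest level where none was called, and for each member the 3 genes nearest in profile. A few genes that this rule takes are not reported here. Members and lists were chosen with earlier results of these data known. Of the macrophage and monocyte list 13 of 14 genes matched by name, and of the class II list 8 of 9. Ctsb overlaps Fdft1, Ctsz overlaps Nelfcd and Lamp1 overlaps Grtp1 on the opposite strand.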

Additional observations from a re-analysis of the deposited data

Results flagged for a closer look

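In 2 of 40 groups of values (10 genes in 4 groups) 1 library stood far from the others, by the gap to its nearest neighbour relative to the range of its group. Chance alone flags about 1 in 20 groups. Cst3 stood at 467 CPM in CD44+ replicate 8, and the next CD44+ library at 67.1 CPM. Ctsl stood at 219 CPM in CD44- replicate 6, and the next CD44- library at 98.7 CPM.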

How the results depend on the processing

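On the diet, 2081 genes and 8 of the 10 were called. Genes called came to 4095 with limma-voom and quality weights, 347 (77.2% higher, against 55.6%) and 0 of the 10 against a fold of 1.5, 2 and 0 of the 10 with all 4 groups in 1 fit, 3379 without conventional replicate 6 and elemental replicate 1 together, and 733 and 3 of the 10 without elemental replicates 1 and 4 together (the last pair of settings chosen after seeing the data). Leaving out 1 library gave 1299 to 3865 genes and 5 to 8 of the 10. Size factors of DESeq2's kind and no filter on low counts each lost Cst3. None of these settings reversed one of the 10.

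In the CD44 comparison, 64 genes were called, against 401 with DESeq2, 101 on total gene reads, 30 against a fold of 1.5, 1748 and 2 of the 10 with all 4 groups in 1 fit, and 36 to 87 without 1 library. Uncalled values turned sign for Ctsd with limma-voom (0.012), Ctss (-0.12) and Ctsc (-0.017) on total gene reads, Lamp1 on reads of 1 place only (-0.058), and, without 1 library, Ctsl (-0.53 to 0.25, positive without CD44- replicate 6) and Ctsd (-0.32 to 0.057, positive without CD44- replicate 7). The cause was not tested in either comparison.

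Replicate numbers are shared between groups, and both CD44 groups carry the same set of numbers. Deviations of same-numbered libraries correlated from -0.14 to 0.27 on the diet and from -0.04 to 0.12 in the CD44 comparison. Low correlations cannot tell whether same-numbered libraries came from the same animal, and the labels do not say. The replicate block gave 2033 genes and 8 of the 10 on the diet, and 37 genes and 0 of the 10 in the CD44 comparison. The spread within its groups limits the CD44 comparison. These libraries differ from the CD4+ libraries in RNA input, kit and sort at once, so the parts of these in the spread cannot be told apart.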
